A study of Caenorhabditis elegans with 11 samples.

Results

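F-box proteins of the FBXA, FBXB and FBXC subfamilies were followed at the RNA level in 2 strains that differ in signaling by DBL-1, a ligand of the BMP family that sets body size. The genes were taken from the annotation of the Affymetrix C. elegans array as all single-gene probe sets named fbxa, fbxb or fbxc with a number. Where a gene had several such probe sets, the 1 with the highest mean over the 11 arrays was used. This gave 310 genes, of 17118 with a single-gene probe set, with 171 in fbxa, 95 in fbxb and 44 in fbxc. All 310 matched a gene of the WBcel235 reference under the same symbol.

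An F-box protein is the part of an SCF ubiquitin ligase that binds the substrate. Its F-box motif docks on a Skp1-related protein, which in turn sits on a cullin, and the complex marks the bound substrate with ubiquitin for degradation by the proteasome. Nematodes of the genus Caenorhabditis carry very large F-box families, of which many members have no known substrate, and genes of these families often lie side by side as copies of each other. Proteins of the FBXA subfamily commonly join the F-box to a domain that they share with FOG-2, an F-box protein needed for sperm production in hermaphrodites.

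L4 larvae of both strains, fed E. coli OP50 after synchronization at L1, were compared. BW1940, labelled dbl-1, carries the integrated transgene ctIs40, made of the cosmid ZC421 with wild-type dbl-1 and a sur-5::gfp marker, and its 5 arrays represent increased signaling. LT186, labelled sma-6, carries sma-6(wk7), an early stop codon in sma-6, which encodes a type I receptor for DBL-1, and its 6 arrays represent decreased signaling. Both strains derive from Bristol N2, and wild-type arrays were not analysed here, so that a difference cannot be assigned to either strain alone. Each array stands for RNA of whole animals, labelled as a biological replicate. In such RNA, fewer cells of a type and less RNA per cell cannot be told apart.

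The deposited values are linear intensities per probe set that the authors scaled to 100 on each array. Array medians spanned 37 to 40.0 for BW1940 and 34.2 to 38.8 for LT186. A value below 0 was set to 0, 10 was added, and log2 was taken, which understates changes of dim genes. Probe sets that reached 10 on 2 or more arrays, 18801 of 22548, were tested with limma, with adjustment over all of them. Positive log2 fold changes stand for more RNA signal in BW1940. The arrays differed strongly in RNA of sperm genes such as the major sperm proteins. The mean log2 value of 43 such genes, here the sperm score, was low in BW1940 replicates 1 (7.06) and 3 (7.85) and lowest in LT186 replicates 2 (5.65) and 4 (5.35), and it lay between 8.94 and 9.42 on the other 7 arrays. LT186 replicates 2 and 4 were also the most alike pair of arrays, with a median absolute log2 difference of 0.114, against 0.18 for the next pair. Summed values of 12 oocyte genes spanned 888 to 2442 (BW1940) and 935 to 4875 (LT186), and those of 7 intestinal genes spanned 6010 to 7476 (BW1940) and 4200 to 5043 (LT186), without overlap. Sums of the hypodermis and cuticle, muscle and neuron genes overlapped between the strains. Median log2 fold changes were 0.57 (intestine), 0.48 (hypodermis and cuticle), 0.24 (muscle), 0.15 (neurons) and -0.35 (oocyte). With all arrays given the same distribution they were 0.30, 0.16, -0.08, 0.02 and -0.42. Whether these differences have a part in the values below was not tested, except where a fit with the sperm score or without those arrays is given.

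Most F-box genes gave little signal at the L4 stage. Of the 310 genes, 102 (32.9%) did not reach a value of 10 on any array, against 13.3% of all probe sets, and 76 (24.5%) reached it on all 11 arrays, against 58.9% of all probe sets. The subfamilies differed in how many of their genes passed the filter: 108 of 171 fbxa genes (63.2%), 25 of 44 fbxc genes (56.8%) and 41 of 95 fbxb genes (43.2%), against 83.4% of all probe sets. None of the 8 fbxb genes on chromosome III passed it. A probe set that does not respond gives the same low value as a silent gene, so these shares speak of detection and not of RNA amounts. Pseudogenes made up 48 of the 310, and 26 of them passed, against 148 of the 262 protein-coding genes. On a single array 136 to 159 of the 310 genes reached 10 in BW1940, against 117 to 141 in LT186, so that the ranges overlap. For all probe sets the shares were 74.1% to 76.0% in BW1940 and 71.3% to 74.3% in LT186. Of the 174 genes that passed, 11 did so only through arrays of BW1940 and 1 only through arrays of LT186, with no array of the other strain at 10. For such genes the filter itself favours higher values in the strain through which they passed. Among the 11 were 3 with an unadjusted p under 0.05, which were fbxa-99, fbxb-47 and fbxb-93. As the filter took these 3 by their BW1940 values, their fold changes and p-values below are not evidence of a difference on their own. Genes with a single array of the other strain at 10 are not in this count, though the strain of higher values carried them past the filter. Among them were fbxa-12, carried by BW1940, and fbxc-45, carried by LT186, and the same limit holds for both.

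After adjustment over all probe sets, 0 of the 174 F-box genes tested passed limma at 0.05, while 191 of all 18801 probe sets (1.02%) did, 0.686% higher and 0.33% lower. The lowest adjusted p among the genes was 0.0546, of fbxa-84. The methods' t-test on the same values passed 2 of them, fbxa-84 (higher) and fbxa-114 (lower), against 2.03% of all probe sets, 1.3% higher and 0.729% lower. Before adjustment, 40 had a limma p under 0.05, which is 23.0% of the genes tested, against 16.7% of all probe sets. Of these, 29 were higher in BW1940 (16.7%, against 11.7% of all probe sets) and 11 lower (6.32%, against 5.03%). After quantile normalization, which gives all arrays 1 distribution, the split was 16 higher and 14 lower, and after centring each array on its median it was 19 higher and 12 lower. For these 2 fits no share of all probe sets at such a p is given, so the splits cannot be set against the whole array. Arrays of the strains did not overlap for 10 of the 174 genes (5.75%), against 4.41% of all probe sets. Of these genes 7 were higher and 3 lower in BW1940, where the shares of all probe sets were 2.95% and 1.47%. The 3 lower genes were fbxa-101, fbxa-106 and fbxa-197. The standard errors had a median of 0.17 on the log2 scale for the F-box genes and 0.19 for all probe sets.

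The 3 subfamilies were set side by side by their log2 fold changes. The median was 0.13 in fbxa (quartiles -0.07 and 0.30), 0.17 in fbxb (0.06 and 0.30) and 0.19 in fbxc (0.10 and 0.34), against 0.08 (-0.12 and 0.26) over all probe sets. Values above 0 were found in 73 of 108 fbxa, 34 of 41 fbxb and 19 of 25 fbxc genes, that is 67.6%, 82.9% and 76.0%, against 60.7% of all probe sets. At an unadjusted p under 0.05 fbxa had 15 genes higher (13.9%) and 9 lower (8.33%) in BW1940. In fbxb 7 were higher (17.1%) and 0 lower, and in fbxc 7 were higher (28%) and 2 lower (8%). Over all probe sets the shares were 11.7% and 5.03%, and with 41 fbxb genes tested a count of 0 lower is not far from that share. Of the higher genes, 1 in fbxa and 2 in fbxb passed the filter only through BW1940 arrays, so the filter has a part in these counts. Quantile normalization brought the medians to 0.05, 0.09 and 0.13, and that of all probe sets to 0.0026. Over all 310 genes without the filter the medians were 0.07, 0.11 and 0.12, against 0.06 over all probe sets. The differences between subfamilies were not tested, since copies of 1 gene can share probes and are not replicates.

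**Figure D1:**
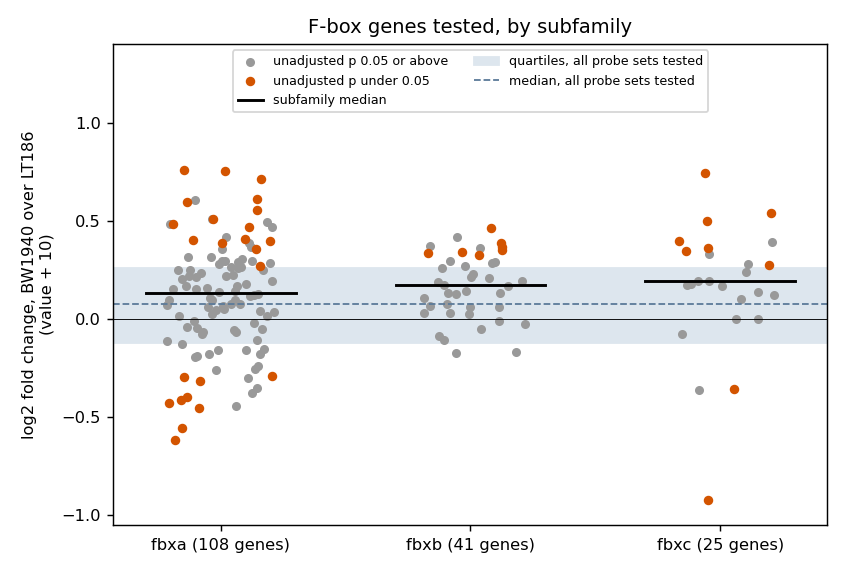
Log2 fold changes, BW1940 over LT186 on the scale of value + 10, of the 174 F-box genes tested, by subfamily. Each point is a gene, orange at an unadjusted p under 0.05 from limma, black lines are subfamily medians, and the dashed line and band are the median and quartiles of all 18801 probe sets. The 3 medians of 0.13, 0.17 and 0.19 lie inside the band, and fbxb has no orange point below 0. Of its orange points above 0, 2 are genes that passed the filter only through BW1940 arrays.

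Among the fbxa genes with the highest fold changes was fbxa-84. Its values were 34.1, 28.0, 32.9, 29.2 and 20.3 in BW1940, against 9.2, 19, 11.9, 18.3, 15.3 and 9.56 in LT186. Every BW1940 array lay above every LT186 array, by a small margin at 20.3 and 19. The means were 28.9 ± 5.45 (SD) over the 5 BW1940 arrays and 13.9 ± 4.28 (SD) over the 6 of LT186, a 2.08-fold difference. The log2 fold change was 0.71 (SE 0.15, limma adjusted p = 0.0546), and the exact permutation p (two-sided) was 0.00216, the smallest that the 462 divisions of the 11 arrays can give. Without BW1940 replicate 5, the lowest of its strain, fbxa-84 passed (limma adjusted p = 0.0435).

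For fbxa-12 the values were 21, 13.2, 16, 11 and 19.1 in BW1940, against 10, 6.58, 7.44, 4.58, -1.44 and 5.29 in LT186. The arrays did not overlap, but the LT186 values were at or below the filter of 10. BW1940 arrays thus carried fbxa-12 past the filter, and its fold change is not evidence of a difference on its own. The log2 fold change was 0.75 (SE 0.18, limma adjusted p = 0.0772). The values of fbxa-99 were 15.8, 14.4, 16.4, 8.13 and 11.5 in BW1940, against 4.7, 8.9, 2.83, 9.79, 5.18 and 1.66 in LT186, with BW1940 replicate 4 among the LT186 arrays. On the log2 scale fbxa-99 differed by 0.60 (SE 0.17, limma adjusted p = 0.119). This gene passed the filter only through BW1940 arrays. The study's lists, made from these same arrays, hold both genes by symbol. Under sequence names they also hold fbxa-60, fbxa-84, fbxa-101, fbxa-114, fbxa-122, fbxa-197, fbxb-39, fbxb-52, fbxb-59, fbxb-118, fbxc-8, fbxc-21, fbxc-47 and fbxc-58, so the direction of these genes is not independent evidence.

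The highest fold change among the fbxa genes was that of fbxa-60, whose probe set is of a type (suffix x) that can also bind other transcripts. It had 83, 122, 87.3, 107 and 65.4 in BW1940, against 68.7, 43.6, 41.9, 43.5, 71.6 and 37.3 in LT186. Arrays overlapped between 65.4 and 71.6. The log2 fold change was 0.76 (SE 0.19, limma adjusted p = 0.0926).

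Lower values in BW1940 were led by fbxa-197, fbxa-101 and fbxa-122. For fbxa-197 the values were 17.1, 23.0, 6.93, 24.9 and 23.4 in BW1940, against 36.4, 33.2, 26.5, 31.2, 31.6 and 41.3 in LT186, without overlap. The log2 difference was -0.62 (SE 0.19, limma adjusted p = 0.142). The probe set of fbxa-101, which is shared between transcripts (suffix s), gave 64.4, 114, 83.7, 92.4 and 112 in BW1940, against 131, 132, 148, 122, 164 and 141 in LT186, also without overlap. The log2 fold change was -0.56 (SE 0.15, limma adjusted p = 0.103), and the exact permutation p was 0.00216 for both genes. The pseudogene fbxa-122 stood at 11 ± 2.19 (SD) over the 5 BW1940 arrays and 19.1 ± 6.44 (SD) over the 6 of LT186, with overlapping arrays and a log2 fold change of -0.45 (limma adjusted p = 0.193). The gene fbxa-114, named because the methods' t-test passed it, had a narrow spread, with 56.1 to 66.1 in BW1940 and 63.8 to 89.8 in LT186. Its log2 fold change was -0.43 (SE 0.11, limma adjusted p = 0.0920 and 0.0373 by the methods' t-test).

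The fold changes of the fbxb genes covered the narrowest range. Their log2 fold changes lay between -0.17 and 0.46, against a range of -0.62 to 0.76 in fbxa and -0.93 to 0.74 in fbxc. They were also dimmer, with 14.7% reaching 10 on all 11 arrays, against 30.4% of fbxa and 22.7% of fbxc genes. The added 10 understates changes of dim genes, and whether this has a part in the range of fbxb was not tested. The highest at an unadjusted p under 0.05 was fbxb-59, with 22.4, 20.3, 40.1, 29.2 and 50.2 in BW1940, against 31.0, 24, 15.6, 18.2, 16.3 and 16.5 in LT186, where LT186 replicates 1 and 2 lay among the BW1940 arrays. Its log2 fold change was 0.46 (SE 0.20, limma adjusted p = 0.277). For fbxb-47 the arrays did not overlap, with 9.95, 10.3, 14.1, 8.49 and 8.23 in BW1940, against 6.74, 6.9, 5.15, 8.0, 4.71 and 4.97 in LT186, all close to the filter. For fbxb-47 log2 of BW1940 over LT186 was 0.33 (limma adjusted p = 0.173). Both fbxb-47 and fbxb-93, given next, passed the filter only through BW1940 arrays. The genes fbxb-52, fbxb-93, fbxb-39 and fbxb-118 had log2 fold changes of 0.38, 0.36, 0.34 and 0.34, with adjusted p between 0.177 and 0.287 by limma. Values of fbxb-39 averaged 37.9 ± 3.78 (SD) over the 5 BW1940 arrays and 28.1 ± 5.01 (SD) over the 6 of LT186, and those of fbxb-93 averaged 9.44 ± 4.82 (SD) over the 5 BW1940 arrays and 4.79 ± 1.35 (SD) over the 6 of LT186.

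In fbxc the fold changes had the widest range, though not the widest quartiles, and genes on chromosome IV held both ends. All 4 fbxc genes on that chromosome had an unadjusted p under 0.05, 2 in each direction, against 12.4% higher and 5.69% lower of all probe sets there. Of these genes, fbxc-45 was carried past the filter by its LT186 arrays, as given below. At the upper end, fbxc-58 had 54.8, 13.5, 16.2, 31.4 and 14.6 in BW1940, against 14.3, 8.11, 10.8, 11.3, 8.36 and 7.3 in LT186. BW1940 replicate 1 stood far above the other arrays, and LT186 replicate 1 lay above the lowest BW1940 array. Its log2 fold change was 0.74 (SE 0.25, limma adjusted p = 0.173). Values of fbxc-8 did not overlap, at 21.8, 20.2, 31.0, 22.6 and 36.1 in BW1940, against 17.8, 16, 14.4, 14.3, 19.5 and 11.3 in LT186, with a log2 fold change of 0.50 (SE 0.14, limma adjusted p = 0.126).

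At the lower end, fbxc-45 had -13.1, 13.2, -6.52, 5.66 and -0.704 in BW1940, against 21.4, 9.49, 24.1, -3.98, 24.1 and 21.1 in LT186. The strains overlapped through LT186 replicates 2 and 4, and the BW1940 mean was below 0, so no ratio is given. Of the BW1940 arrays only replicate 2 reached 10, so LT186 arrays carried fbxc-45 past the filter. Its fold change is therefore not evidence of a difference on its own. The log2 fold change was -0.93 (SE 0.35, limma adjusted p = 0.217). Values of fbxc-47 were 38.5 ± 5.61 (SD) over the 5 BW1940 arrays and 52.4 ± 10.5 (SD) over the 6 of LT186, with LT186 replicates 2 and 4, at 38.9 and 39.9, among the BW1940 arrays, and a log2 fold change of -0.36 (limma adjusted p = 0.247). On chromosome II, fbxc-21 stood at 25.7 ± 4.79 (SD) over the 5 BW1940 arrays and 14.8 ± 4.69 (SD) over the 6 of LT186, with a log2 fold change of 0.54 (SE 0.15, limma adjusted p = 0.120). For fbxc-53 the log2 fold change was 0.28 (limma adjusted p = 0.274).

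**Figure D2:**
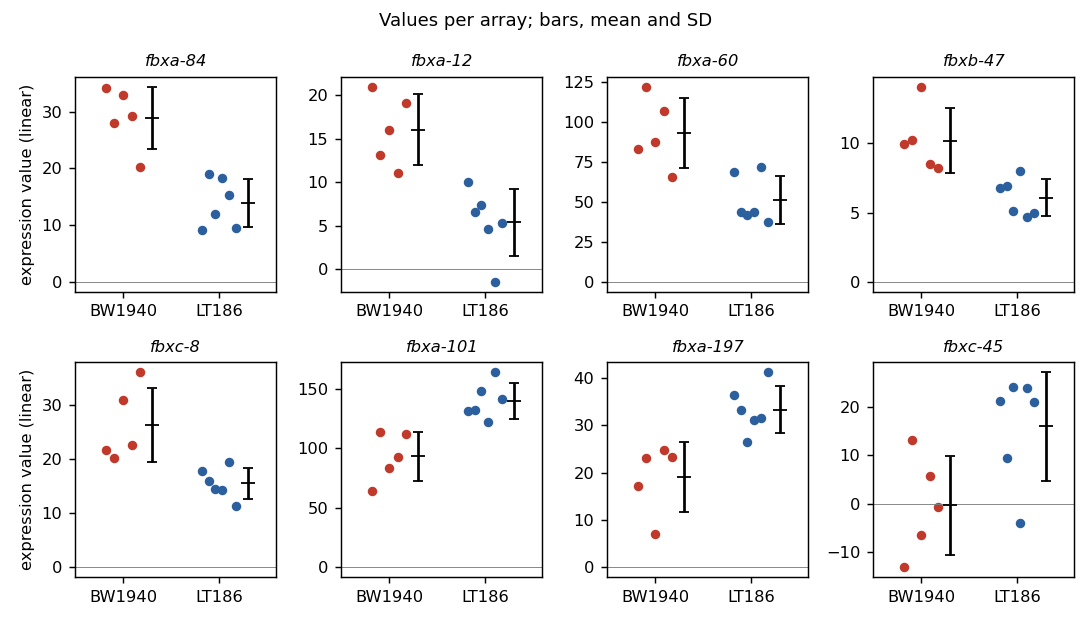
Expression values, on the linear scale, of 8 F-box genes on each array, with 5 arrays of BW1940 and 6 of LT186. Points are arrays in replicate order, and black bars are the mean and SD of the strain. In fbxa-84, fbxa-12, fbxb-47 and fbxc-8 all BW1940 arrays lie above all LT186 arrays, in fbxa-101 and fbxa-197 they lie below, and in fbxa-60 and fbxc-45 the strains overlap.

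The subfamilies also differed in where they lie in the genome. Of 44 fbxc genes 38 lie on chromosome II, as do 51 of 95 fbxb genes, while 74 of 171 fbxa genes lie on chromosome V and 45 on chromosome III. Runs of at least 3 of the genes with no more than 5 other genes between neighbours numbered 27, and held 88 fbxa, 58 fbxb and 27 fbxc genes (51.5%, 61.1% and 61.4%). Copies of this kind can bind each other's probes, and of the 174 genes tested 18 had a probe set of suffix s and 6 of suffix x.

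Most fbxa genes of chromosome I had lower values in BW1940. Of 12 tested, 10 had log2 fold changes below 0, with a median of -0.28 and a range of -0.56 to 0.21, and an unadjusted p under 0.05 was seen for 5 of those below 0 and 0 of those above. Over all probe sets of chromosome I the shares at such a p were 7.70% lower and 9.99% higher, 54.3% lay above 0, and the median was 0.03, and the 4 fbxb genes tested on the same chromosome were all above 0, with a median of 0.14. Of the 12 genes 7 are pseudogenes, and 4 had a probe set of suffix s. A run among them holds fbxa-124, fbxa-122 and fbxa-123, at -0.41, -0.45 and -0.26. Quantile normalization moved the median of the 12 to -0.36. The fbxa genes of chromosome III had a median of 0.23, against 0.04 over all probe sets of that chromosome, and 24 of 28 lay above 0, with 7 higher and 0 lower at an unadjusted p under 0.05, where all probe sets of that chromosome gave 56.5%, 11.4% and 6.56%. In the longest run there, from fbxa-55 to fbxa-51, all 9 genes tested of 12 lay above 0, between 0.11 and 0.76. This run holds fbxa-60 at 0.76, fbxa-59 at 0.48 and fbxa-54 at 0.40. Of the 28 genes 4 had a probe set of suffix x, and neighbouring copies may not be separate readings. On chromosome V, which holds more fbxa genes tested than any other, 32 of 48 lay above 0 and the median was 0.12, against 0.10 over all probe sets. These groupings by chromosome, and the genes named from the runs, were chosen after the values were seen, and the differences between chromosomes were not tested.

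**Figure D3:**
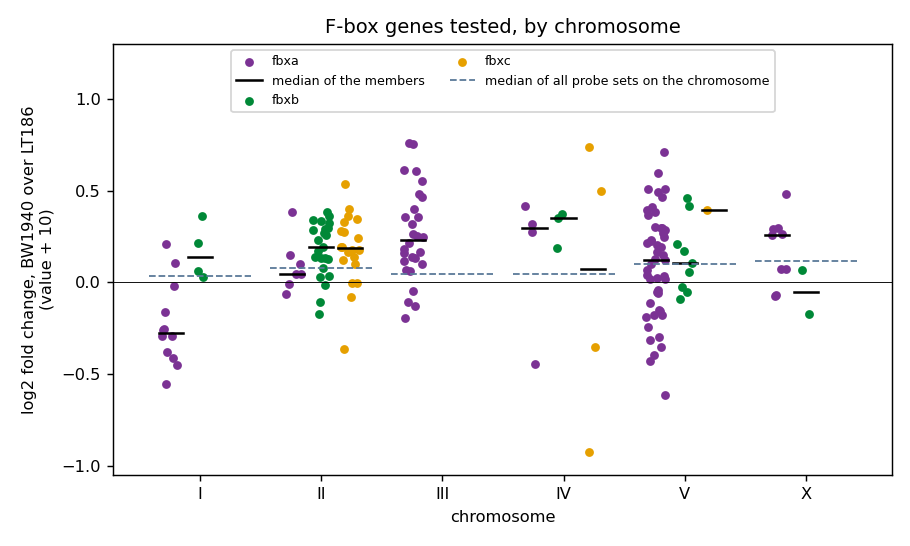
Log2 fold changes, BW1940 over LT186 on the scale of value + 10, of the 174 F-box genes tested, by chromosome and subfamily. Points are genes, black lines the medians of the genes of a subfamily, and dashed lines the medians of all probe sets on the chromosome. On chromosome I 10 of 12 fbxa genes lie below 0, and on chromosome III 24 of 28 lie above it.

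In fbxa and fbxb the genes with the largest variation between arrays did not follow the strains. In fbxc those genes were fbxc-45 and fbxc-58, given above as the ends of that subfamily's fold changes. The gene fbxa-202 had the largest SD of log2 values of all the F-box genes tested, 1.23 over the 11 arrays. Its values were 3.4, 58.7, 29.9, 65.6 and 31.2 in BW1940, against 73.7, 2.91, 86.2, 1.24, 90.7 and 66.5 in LT186. It was near 0 on the 3 arrays of lowest sperm score, BW1940 replicate 1 and LT186 replicates 2 and 4, and its log2 fold change between the strains was -0.16 (limma adjusted p = 0.954), which turned to 0.25 without BW1940 replicate 1 and was also above 0 without LT186 replicate 1, 3 or 5. The values of fbxb-58 were 16.5, 35.8, 15.4, 74.1 and 5.61 in BW1940, against 47, 11.5, 59.1, 6.96, 30.0 and 37.6 in LT186. LT186 replicates 2 and 4 were again the lowest of their strain, but in BW1940 the lowest was replicate 5, of high sperm score, and the log2 fold change was -0.17 (limma adjusted p = 0.921).

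The opposite order was seen in fbxa-71. This gene, named after its values were seen, had 21, 0.53, 7.09, 2.99 and 0.0198 in BW1940, against 3.24, 24.1, -1.4, 24.9, -0.0559 and 5.5 in LT186, so that it was above 20 on the 3 arrays of lowest sperm score and below 10 on the other 8. The gene fbxa-72, with an SD of 0.74, had 350, 293, 455, 138 and 204 in BW1940, against 154, 287, 138, 268, 319 and 71 in LT186. The 3 arrays of lowest sperm score were neither the lowest nor the highest of their strains together in this gene. Between the strains fbxa-72 differed by 0.51 on the log2 scale (SE 0.40, limma adjusted p = 0.593), by 0.26 without LT186 replicate 6 and by 0.32 without BW1940 replicate 3. For fbxb-56 the values spanned 10.4 to 40.7 in BW1940, against 6.35 to 44.6 in LT186, with a log2 fold change of 0.06 (limma adjusted p = 0.963).

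Over the genes tested, 12 of 108 fbxa, 0 of 41 fbxb and 3 of 25 fbxc genes had BW1940 replicate 1 as the lowest array of its strain together with LT186 replicates 2 and 4 as the lowest of theirs (8.62% of all 174, against 14.6% of all probe sets). The same 3 arrays were the highest for 14 fbxa, 8 fbxb and 6 fbxc genes (16.1%, against 18% of all probe sets). With the sperm score as a covariate in limma, 15 of the 174 genes passed at an adjusted p of 0.05, 11 higher and 4 lower in BW1940. This is 8.62%, against 8.54% of all probe sets in the same fit, 4% higher and 4.54% lower. The 15 were 11 fbxa and 4 fbxc genes, fbxa-84 (adjusted p = 0.00539), fbxa-12, fbxa-60, fbxa-99 and fbxa-101 among them, and 0 fbxb genes. Without the 3 arrays of lowest sperm score 0 of the genes passed, against 0.441% of all probe sets. In that fit 22 genes were higher and 13 lower at an unadjusted p under 0.05, with no share of all probe sets given.

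**Figure D4:**
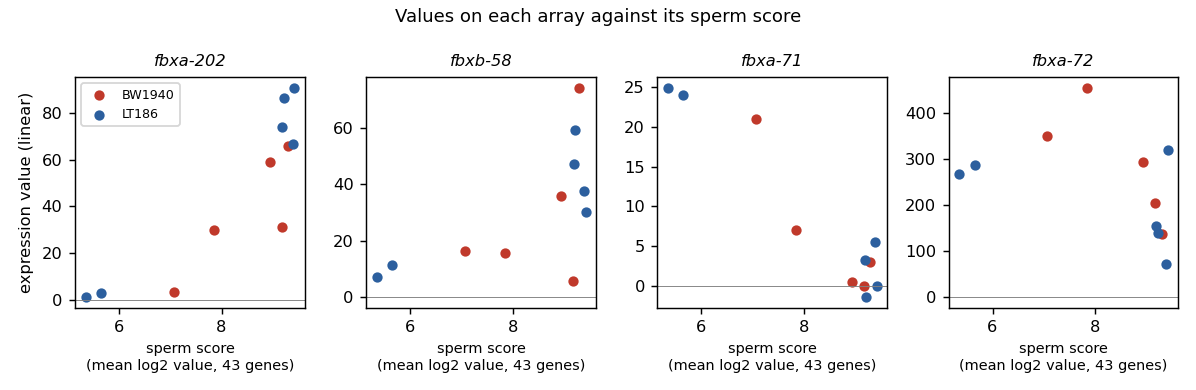
Expression values, on the linear scale, of 4 F-box genes against the sperm score of each array, the mean log2 value of 43 sperm genes. Points are the 5 arrays of BW1940 and the 6 of LT186. On the 3 arrays of lowest score fbxa-202 is below 4 and fbxa-71 above 20, while fbxa-72 and fbxb-58 are spread within each strain.

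F-box proteins act with Skp1-related proteins and cullins, whose genes were examined next. Of 14 Skp1-related genes tested, 1 rose in BW1940, 0 fell, and the median log2 fold change was 0.19, against 0.686% and 0.33% of all probe sets and their median of 0.08. An unadjusted p under 0.05 was seen for 5 genes above 0, which were skr-3, skr-4, skr-5, skr-7 and skr-10, and for 1 below 0, skr-17, at -0.56 (SE 0.12, limma adjusted p = 0.0548), against 11.7% above and 5.03% below 0 over all probe sets. The gene that rose was skr-4, with 111, 153, 128, 99.9 and 109 in BW1940, against 74.7, 66.9, 69.2, 65.2, 83.5 and 52.7 in LT186. The arrays did not overlap, and the log2 fold change was 0.72 (SE 0.14, limma adjusted p = 0.0324). The call was kept without BW1940 replicate 4 or LT186 replicate 5 and lost without any other single array (limma adjusted p between 0.0388 and 0.0919 over the 11 arrays left out in turn). Without the 3 arrays of lowest sperm score it was lost as well (limma adjusted p = 0.117). The call was kept after quantile normalization (limma adjusted p = 0.0388). It was also kept with the sperm score as a covariate (limma adjusted p = 0.0139), where 8.54% of all probe sets passed.

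The products of skr-3, skr-4 and skr-5 are known to act with the cullin CUL-6 in a ubiquitin ligase of the response to intracellular pathogens, for which FBXA-75 and FBXA-158 are known as F-box subunits. Values of cul-6 were 55.9, 38.4, 61.7, 36.1 and 45.1 in BW1940, against 30.4, 34.3, 24.2, 33.4, 42.6 and 21.1 in LT186, with 1 LT186 array, replicate 5, among those of BW1940. The log2 difference of cul-6 was 0.49 (SE 0.17, limma adjusted p = 0.180). The log2 fold changes of skr-3 and skr-5, named after their values were seen, were 0.50 (limma adjusted p = 0.176) and 0.34 (adjusted p = 0.205). Neither F-box gene passed the filter. Values of fbxa-75 spanned 2.09 to 6.35 in BW1940, against 2.34 to 8.71 in LT186, and those of fbxa-158 spanned -0.652 to 1.9 in BW1940, against -0.55 to 1.18 in LT186. Of the 8 cullin and RING partner genes tested 0 passed limma, with 1, cul-6, at an unadjusted p under 0.05. The log2 fold changes of cul-3 and cul-1, the cullin of the canonical SCF complex, were 0.34 (adjusted p = 0.323) and 0.14 (adjusted p = 0.745).

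Among 10 F-box genes named outside the 3 subfamilies, 1 fell in BW1940, 0 rose, and 7 had log2 fold changes below 0, with a median of -0.17. Over all probe sets 0.33% fell and 0.686% rose. Of those below 0, 4 had an unadjusted p under 0.05, against 0 of those above 0, where the shares of all probe sets were 5.03% and 11.7%. These were ftr-1, fog-2, sel-10, which acts in the turnover of Notch receptors, and mec-15, which acts in touch receptor neurons. The gene that fell was ftr-1, a relative of fog-2, with 21.1, 35.6, 24.5, 55.1 and 16.9 in BW1940, against 69.8, 80.6, 75, 69.9, 60.8 and 62.4 in LT186. The arrays did not overlap, with 55.1 in BW1940 replicate 4 the nearest to those of LT186. The log2 fold change was -1.04 (SE 0.21, limma adjusted p = 0.0380). The call was kept only without BW1940 replicate 4 among the 11 arrays left out in turn (limma adjusted p between 0.00814 and 0.106), and lost without the 3 arrays of lowest sperm score (limma adjusted p = 0.145). It was kept after quantile normalization (limma adjusted p = 0.0388) and with the sperm score as a covariate (limma adjusted p = 0.0158). For fog-2 itself, named after its values were seen, the log2 fold change was -0.39 (SE 0.13, limma adjusted p = 0.178). As fog-2 and ftr-1 are close copies, their probes may bind both transcripts. The study's lists from these arrays also hold skr-3, skr-4, skr-5, skr-7, skr-10, skr-17, cul-6, fog-2, ftr-1 and mec-15, so their direction is not independent evidence either.

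**Figure D5:**
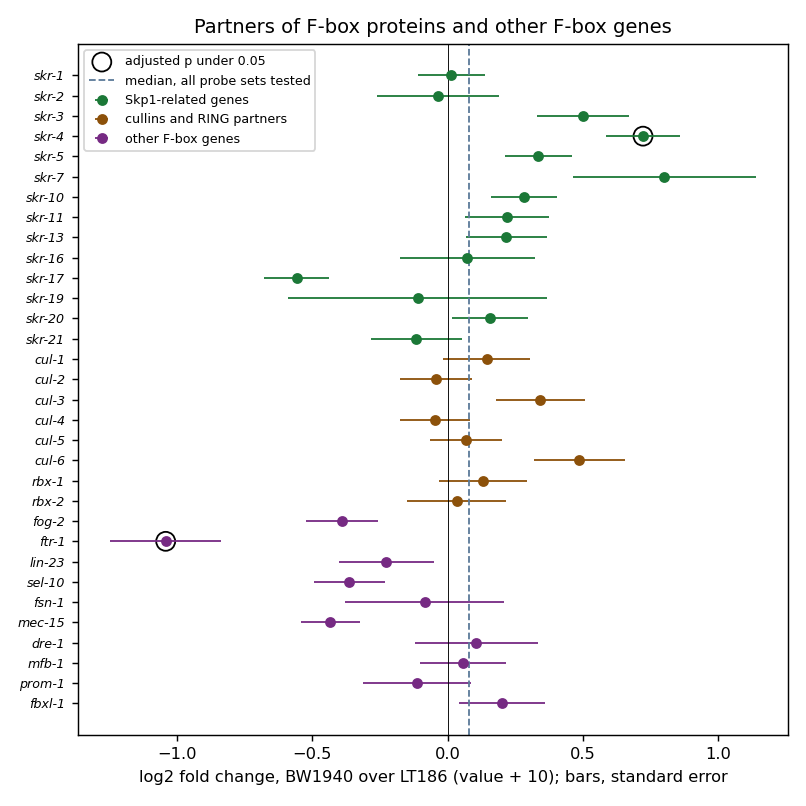
Log2 fold changes, BW1940 over LT186 on the scale of value + 10, of 14 Skp1-related genes, 8 cullin and RING partner genes and 10 other F-box genes, with standard errors as bars. Circles mark an adjusted p under 0.05 from limma, and the dashed line is the median of all probe sets tested. The circled genes are skr-4 at 0.72 and ftr-1 at -1.04.

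For 7 of the 310 genes the array holds a further single-gene probe set, and in 2 of them both were tested and gave different values. The probe set of fbxa-150 used here had a log2 fold change of 0.02 (limma adjusted p = 0.977), and the other 0.67 (SE 0.16, adjusted p = 0.0819). For fbxc-50 the values were -0.36 (adjusted p = 0.622) and 0.17 (adjusted p = 0.617). A further 22 probe sets carry an fbxa, fbxb or fbxc name among several symbols and were not used.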

How the data were processed

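The authors wrote probe intensities with Microarray Suite 5, per the labels, and turned them into expression values, deposited as a linear intensity per probe set, with Probe Profiler. That software gave less weight to probe pairs without information and set every array to a common level of 100. Nothing further was done to the deposited values except as follows. For the tests, log2 of the value plus 10 was used, with values below 0 raised to 0. A linear model without covariates (BW1940 minus LT186) was fitted by limma 3.58.1 under R 4.3.3 to the probe sets that reached 10 on 2 or more arrays, with Benjamini and Hochberg adjustment at 0.05 over all 18801. The presence calls of the authors' software were not used here. Python 3.11.15 with numpy 2.4.6 and pandas 2.3.3 gave summaries and exact permutation tests over 462 divisions of the arrays, counting absolute differences of mean log2 values. The fit was also run on simulated arrays with known changes and independent noise for each probe set. That simulation holds no variation shared by the probe sets of an array, so it does not speak to the sperm score differences. The methods name a modified t-test without stating the modification, and the unmoderated equal-variance statistics of the same fit stand for it.

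Of 22548 probe sets, 20766 carry 1 gene symbol in the platform annotation, 887 several and 895 none. Chromosomes, neighbours and gene types come from RefSeq, assembly WBcel235. The array values have no build, so no coordinates are given. The genes and lists were chosen with earlier results of these data known. Named F-box genes are those passing limma, the 3 highest and 3 lowest log2 fold changes of each subfamily at an unadjusted p under 0.05, the 2 with the largest SD in each, fbxa-12 and fbxa-99, whose symbols stand on the study's lists, and fbxa-75 and fbxa-158. Of the partner lists, genes that pass limma are named, and otherwise up to 3. Tried as alternatives were another offset, filter and scaling, values below 0 kept apart, the methods' t-test, array weights, moderation, a replicate block, the probe set, the sperm score as a covariate and each array left out. Fits without the 3 arrays of lowest sperm score and with LT186 replicates 2 and 4 averaged were added after the data were seen. The number of arrays limits the precision, and p-values measure the spread between the arrays as labelled.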

Additional observations from a re-analysis of the deposited data

Results flagged for a closer look

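In fbxb-118, BW1940 replicate 2 stood apart from the other arrays of its strain, with a value of 14.8 against 21.8 to 22.8 on the other 4. The gap on the log2 scale made up 0.886 of the range of the 5 arrays. The LT186 arrays of this gene lay between 10.3 and 18.2. Each strain was examined for the named F-box genes that were tested and for the mean of each subfamily, 52 groups in all, and chance marks about 1 in 20 of them.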

How the results depend on the processing

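The count of F-box genes called, 0, became 1 with values below 0 kept apart and with a filter of 20 on 5 arrays, 2 with the methods' t-test or without a filter, 3 with array weights and 15 with the sperm score as a covariate, and lay between 0 and 1 with each array left out. The 29 genes higher at an unadjusted p under 0.05 became 44 with array weights, 19 after median centring, 14 with the stricter filter (76 genes tested) and 16 after quantile normalization. The 11 lower became 7 with that filter. With the sperm score 41 were higher and 17 lower, and without a filter 42 were higher and 11 lower (310 genes tested). With each array left out there were 20 to 36 higher and 7 to 13 lower, with 7 lower without BW1940 replicate 1, BW1940 replicate 3 or LT186 replicate 1. In the alternatives, the replicate block below among them, no share of all probe sets at an unadjusted p under 0.05 is given. These counts therefore cannot be set against the whole array. The median of fbxa was 0.0496 with an offset of 50 and 0.0494 after quantile normalization, that of fbxc 0.10 with the offset of 50, and that of all the genes, 0.16 above, was 0.065 with the offset of 50, 0.087 after quantile normalization and 0.085 without a filter. All subfamily medians stayed above 0 in every alternative, and so did the median of all probe sets. The latter was 0.038 with the offset of 50, 0.0026 after quantile normalization and 0.059 without a filter. Of the 174 genes, 51 changed sign with some array left out, with log2 fold changes of at most 0.21 in size, and 15 after quantile normalization. Among the genes named by rule these were fbxb-56 at -0.00478 after quantile normalization, and with each array left out fbxa-202 from -0.56 to 0.25, fbxb-56 from -0.13 to 0.23 and fbxb-58 from -0.51 to 0.10. Over all probe sets, the 191 calls became 443 with array weights, 381 with the methods' t-test, 416 without a filter, 366 with an offset of 50 and 1605 with the sperm score, 83 without the 3 arrays of lowest sperm score, and 78 to 151 with each array left out. The cause of these shifts was not tested. Averaging LT186 replicates 2 and 4 left the count at 0, with 27 higher and 10 lower.

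Replicate numbers are shared by the labels, but same-numbered arrays did not deviate together, with correlations between -0.69 and 0.10, and 0 of the 5 BW1940 arrays correlated best with its own number. With the replicate block 0 F-box genes passed, 18 were higher and 7 lower at an unadjusted p under 0.05, fbxb-56 stood at -0.13, and 5 of all 18801 probe sets passed, against 191. Values near the floor limit what can be seen, since 136 of the 310 genes were not tested.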
